A study of Mus musculus with 10 samples.

Results

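The 10 genes described here encode the main parts of MHC class I antigen presentation in the mouse: the heavy chains H2-K1, H2-D1 and H2-T23, the light chain B2m, the peptide transporter subunits Tap1 and Tap2, the loading factors Tapbp and Pdia3, the trimming peptidase Erap1 and the transcriptional activator Nlrc5. They were chosen by gene symbol. All 10 were listed in both expression tables, among 17658 named genes in the SB431542 table and 16719 in the T-5224 table, and 9 of the 10 reached the mean of 1 RPKM (reads per kilobase of transcript, scaled to library size) asked for a test in each. The exception in both was Nlrc5.

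Every library came from ASZ001, a mouse basal cell carcinoma (BCC) cell line that resists Smoothened inhibition, so each group is 1 line in culture with no host or immune cells. In the SB431542 experiment, 3 DMSO libraries were compared with 3 from cells given 10 µM SB431542, which blocks ALK5, the kinase of the TGFß receptor. For T-5224, 2 DMSO libraries were compared with 2 from cells given 20 µM T-5224, an inhibitor of the AP-1 transcription factor. All groups were kept for 24 h in low-serum 154CF medium with added calcium, and the libraries held about 31900000 to 51300000 counted reads each. The study used the inhibitors to ask what AP-1 and TGFß signaling each contribute to transcription in resistant BCC, and the question here is how the class I pathway stood under each.

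Class I molecules show peptides from inside the cell to CD8 T cells. The proteasome cuts proteins into peptides, Tap1 and Tap2 pump them into the endoplasmic reticulum, Erap1 shortens them, and tapasin (Tapbp) with Erp57 (Pdia3) and calreticulin holds the heavy chain and B2m ready until a peptide fits. Interferon raises most of these genes through Irf1 and the class I activator Nlrc5, which works at the S-X-Y promoter module with Rfx5, Creb and NF-Y. Tumors often lower this pathway.

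The promoters are shown first as a description, and no link between their letters and the changes below was tested. RefSeq (GRCm38.p6) held a window from 250 bases before to 50 after the start site for 8 of the 10 genes, with Tap2 and Nlrc5 named only. The 250 bases before the start site are printed 5′ to 3′ for the 6 genes the results turn on, with the first of 2 H2-K1 windows at chr17:34000334-34000583, minus strand, H2-D1 at chr17:35262844-35263093, plus strand, H2-T23 at chr17:36032702-36032951, minus strand, B2m at chr2:122147437-122147686, plus strand, Tap1 at chr17:34187306-34187555, plus strand and Tapbp at chr17:33919228-33919477, plus strand. Capitals mark matches on either strand to GGGANTCCC (a form of the NF-kB site of class I enhancer A), GAAANNGAA or GAANNGAAA (the 2 ends of the interferon-stimulated response element core), TGACG (the X2 box core) and CCAAT (the Y box).
H2-K1: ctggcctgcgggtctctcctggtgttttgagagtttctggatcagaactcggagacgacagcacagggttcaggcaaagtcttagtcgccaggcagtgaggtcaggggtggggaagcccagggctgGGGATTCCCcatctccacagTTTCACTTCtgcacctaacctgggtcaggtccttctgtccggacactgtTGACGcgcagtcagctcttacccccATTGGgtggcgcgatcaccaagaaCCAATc
H2-D1: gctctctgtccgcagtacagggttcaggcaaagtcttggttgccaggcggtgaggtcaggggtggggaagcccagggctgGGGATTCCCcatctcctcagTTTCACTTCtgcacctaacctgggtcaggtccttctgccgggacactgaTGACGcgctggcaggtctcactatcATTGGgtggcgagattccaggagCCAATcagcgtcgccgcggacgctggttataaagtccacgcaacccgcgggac
H2-T23: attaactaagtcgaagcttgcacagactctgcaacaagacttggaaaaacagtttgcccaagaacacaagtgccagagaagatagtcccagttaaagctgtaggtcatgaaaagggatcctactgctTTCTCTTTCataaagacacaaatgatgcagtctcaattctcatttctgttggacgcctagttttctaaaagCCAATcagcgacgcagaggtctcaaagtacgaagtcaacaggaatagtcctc
B2m: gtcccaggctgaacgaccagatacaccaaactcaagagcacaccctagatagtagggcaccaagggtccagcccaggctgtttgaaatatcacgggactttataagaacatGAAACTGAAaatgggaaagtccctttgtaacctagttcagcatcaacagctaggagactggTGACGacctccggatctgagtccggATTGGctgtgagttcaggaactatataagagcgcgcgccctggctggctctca
Tap1: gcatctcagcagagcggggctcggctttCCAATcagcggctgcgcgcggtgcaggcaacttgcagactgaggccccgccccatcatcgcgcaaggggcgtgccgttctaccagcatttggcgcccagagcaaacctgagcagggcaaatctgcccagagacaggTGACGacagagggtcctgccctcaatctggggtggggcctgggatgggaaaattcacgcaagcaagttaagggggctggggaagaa
Tapbp: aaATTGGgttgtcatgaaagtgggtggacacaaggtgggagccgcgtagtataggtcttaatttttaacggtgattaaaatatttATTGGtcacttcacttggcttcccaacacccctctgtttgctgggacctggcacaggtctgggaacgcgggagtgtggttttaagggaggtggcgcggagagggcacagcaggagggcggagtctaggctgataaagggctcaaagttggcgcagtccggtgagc

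H2-K1 and H2-D1 carried the same matches in the same order. In the H2-K1 window these were GGGATTCCC at position -124 from the start site, TTTCACTTC at -104, TGACG at -55, ATTGG at -30 and CCAAT at -6, and in the H2-D1 window the same letters began at -170, -150, -101, -76 and -53. No GGGANTCCC was found in the windows of the other 6 genes, and 0.767% of all 32851 windows hold one. Other forms of the NF-kB site were not searched, so an unmarked window, that of B2m included, may still hold one. H2-T23 held TTCTCTTTC at -123 and CCAAT at -52, without TGACG. B2m held GAAACTGAA at -139, TGACG at -78 and ATTGG at -53, with a CGTCA beyond the start site at 44. Tap1 held CCAAT at -222 and TGACG at -86, and its start site lies 226 bases from that of the immunoproteasome gene Psmb9, which is read the other way. Tapbp held ATTGG at -248 and at -165 and no other motif searched. Of the genes not printed, Pdia3 held TGACG and 2 CCAAT, and Erap1 held TTCACTTTC at -9 and -3. No window of the 8 genes held TGANTCA (AP-1) or GTCTAGAC (the Smad binding element), which are in 7.81% and 0.213% of all windows. GAAANNGAA is in 8.56%, GAANNGAAA in 7.52%, TGACG in 20.8% and CCAAT in 37.4%. GAANNGAAA was added to the search after the windows were seen. A match in letters is a description and not a bound site.

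In DMSO, the 10 genes covered a wide range. In the SB431542 experiment, mean RPKM was 221 ± 15.2 (SD, n = 3) for Pdia3, 110 ± 35.3 for B2m and 95.5 ± 14.3 for Tapbp, then 23.4 ± 3.99 for H2-D1, 14.1 ± 1.86 for H2-K1 and 9.0 ± 1.65 for H2-T23. Erap1 stood at 4.99 ± 0.234, Tap1 at 4.34 ± 0.606, Tap2 at 1.67 ± 0.297 and Nlrc5 at 0.0807 ± 0.0411. B2m and Tapbp overlapped between libraries, as did Erap1 and Tap1. In the DMSO cells grown beside T-5224 the same order held but for 3 places: Tapbp (162 ± 8.25, n = 2) was beside Pdia3 (162 ± 8.22), H2-T23 (26.6 ± 2.99) was beside H2-D1 (26.7 ± 0.238) and above H2-K1 (12.2 ± 0.617), and Tap1 (6.47 ± 0.370) was above Erap1 (5.06 ± 0.337). The 2 tables were normalized separately, so levels were not tested between them. Levels of H2 genes also depend on how well reads of this line fit the mm9 reference, and the H-2 haplotype of ASZ001 is not given in the sources used here.

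**Figure D1:**
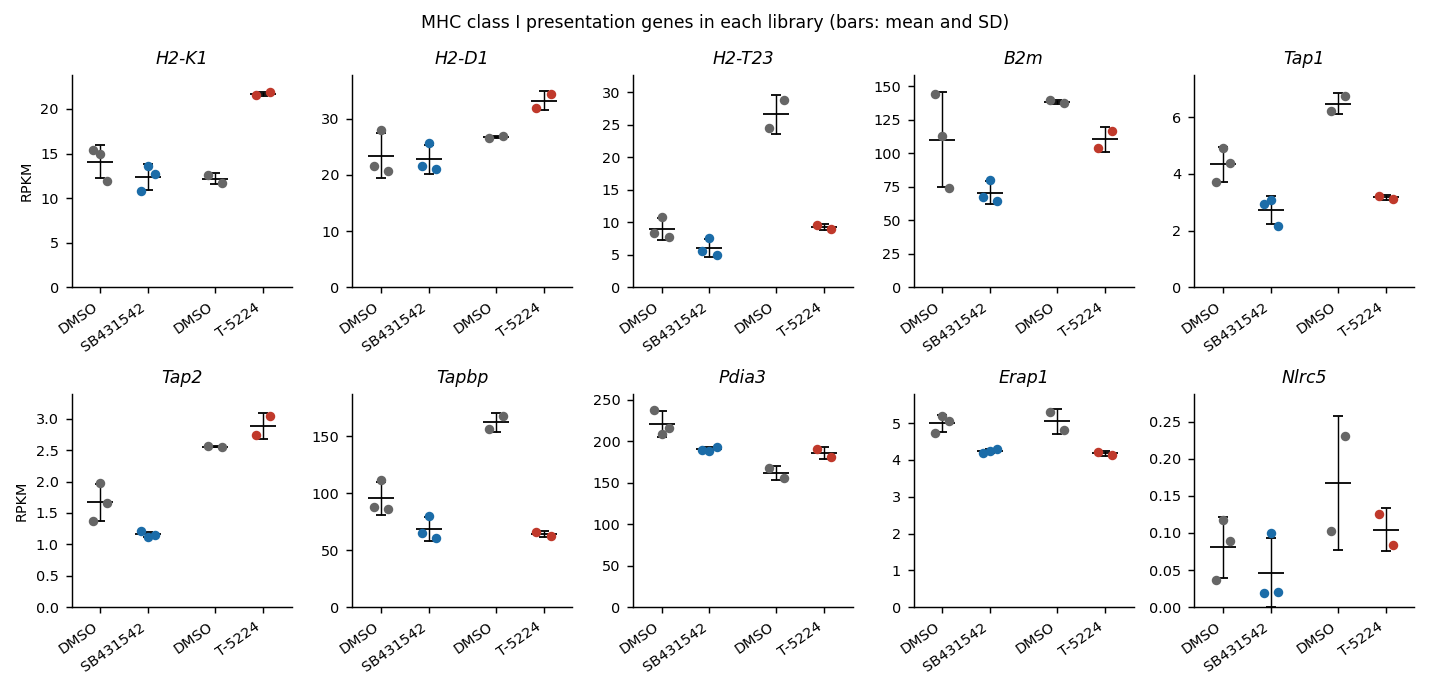
RPKM of the 10 class I presentation genes in each library (y axis, linear from 0), with DMSO in gray, SB431542 in blue and T-5224 in red; black lines are the mean and SD of each group. Under T-5224 H2-K1 stood above both DMSO libraries at 21.6 and 21.9 and H2-T23 below both at 9.63 and 8.97, while under SB431542 the groups of H2-K1, H2-D1, B2m and Nlrc5 overlapped.

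The cells carried the markers of their label. Summed over 7 basal keratinocyte genes, RPKM was 10684 to 10884 in DMSO and 7429 to 7977 with SB431542. Krt14, Krt5 and Krt17 made up most of each sum. With SB431542 these 3 fell, Krt15 and Epcam rose and 2 did not pass (10.0% of all genes fell and 10.2% rose). In the T-5224 experiment the sum was 14705 to 15458 in DMSO and 2280 to 2392 with inhibitor. There 6 of the 7 fell and 1 rose, beside 39.4% and 40.3% of all genes. Of leukocyte markers, Ptprc (CD45) was at 0.012 or less in every library and the list without Cd68 summed to 0.015 to 0.125, while Cd68 went from 16.7 and 18.6 to 32.7 and 33.2 under T-5224. Pecam1 was the endothelial gene detected, at 5.23 to 11.8 in DMSO and 2.60 to 4.67 with inhibitors, with Cdh5 at 0.013 or less. The fibroblast list summed to 2.43 to 4.13, mostly from Dcn, and the melanocyte list to 0.116 to 0.426. Pdgfra, of the fibroblast list and too low to test, went from 0.45 and 0.58 RPKM in DMSO to 0.116 and 0.133 under T-5224. The part of these marker changes in the class I results was not tested. In bulk RNA, fewer cells of a type and less RNA per cell cannot be told apart.

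Under T-5224 the class I genes went both ways, at shares near those of all genes tested. H2-T23, Tapbp, Tap1, B2m and Erap1 fell, H2-K1, H2-D1 and Pdia3 rose, and Tap2 did not pass the test. The 2 past 2-fold were H2-T23, 2.76-fold lower, and Tapbp, 2.51-fold lower. The background was high, since 39.4% of the 10809 genes tested were called lower and 40.3% higher with limma on log2(RPKM + 0.5) at an adjusted p under 0.05, and 5 of 9 lower and 3 of 9 higher stand near those shares. All 9 averaged over 1 RPKM in both groups of each experiment. Past 2-fold, 10.6% of all genes were lower and 10.4% higher, against 2 of 9 and 0 of 9 here. In 5 of the 9, both treated libraries were below both DMSO libraries (44.5% of all genes), and in 4 both were above (45.1%). The median log2 fold change of the 9 was -0.25 and that of all genes 0.0034.

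Of the heavy chains, H2-K1 (mm9 chr17:34132962-34137278, minus strand), a classical chain that presents to CD8 T cells, had 12.6 and 11.7 RPKM in DMSO and 21.6 and 21.9 under T-5224. The groups did not overlap, and H2-K1 rose by a log2 fold change of 0.81 (SE 0.067, adjusted p = 4.59e-07). H2-D1 (chr17:35399675-35404444, plus strand), the other classical chain, had 26.6 and 26.9 RPKM in DMSO and 32.0 and 34.4 under T-5224. It rose less, by 0.31 (SE 0.061, adjusted p = 0.000637). H2-T23 (chr17:36166718-36169800, minus strand), which encodes the nonclassical chain Qa-1 that engages the CD94/NKG2A receptor, had 24.5 and 28.7 RPKM in DMSO and 9.63 and 8.97 under T-5224. It fell by 1.46 on the log2 scale (SE 0.082, adjusted p = 1.86e-08). The RPKM of H2-K1 over that of H2-T23 therefore went from 0.515 and 0.409 in DMSO to 2.24 and 2.44.

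These chains share sequence with other H2 genes, and how reads with several matches were counted is not stated. H2-L, listed beside H2-D1, kept an H2-D1 to H2-L ratio of 0.861 to 1.04 over the 10 libraries, so the 2 rows moved almost together and the value of H2-D1 is uncertain to that extent. H2-T9 and H2-T22 kept a ratio of 1.04 to 1.05. H2-K1 may share reads with H2-K2, which rose from 1.20 and 2.24 to 4.06 and 5.90 RPKM under T-5224 (log2 fold change 1.33, SE 0.21, adjusted p = 9.90e-05).

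B2m (chr2:121973422-121978819), the light chain that every class I heavy chain needs to reach the surface, had 140 and 137 RPKM in DMSO and 104 and 117 under T-5224. It fell by 0.33 on the log2 scale (SE 0.061, adjusted p = 0.000417), a smaller step than that of H2-T23. The summed RPKM of H2-K1 and H2-D1 per RPKM of B2m was 0.280 and 0.281 in DMSO and 0.515 and 0.481 under T-5224, so the classical chains stood higher against the light chain in both treated libraries.

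The transporter subunits did not move together. Tap1 (chr17:34324498-34334170) had 6.21 and 6.73 RPKM in DMSO and 3.24 and 3.12 under T-5224, and it fell by 0.92 on the log2 scale (SE 0.090, adjusted p = 2.10e-06). Tap2 (chr17:34340472-34353266), its obligate partner, had 2.56 and 2.55 RPKM in DMSO and 2.75 and 3.04 under T-5224 (log2 fold change 0.15, SE 0.10, adjusted p = 0.205). Tap1 over Tap2 was 2.42 and 2.64 in DMSO and 1.18 and 1.03 under T-5224, which put the 2 subunits at near equal RPKM after the inhibitor.

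Tapbp (chr17:34052844-34066235), tapasin, had 157 and 168 RPKM in DMSO and 66.1 and 62.6 under T-5224. It fell by 1.33 on the log2 scale (SE 0.057, adjusted p = 1.87e-09), with no overlap. Pdia3 (chr2:121239511-121264423), the oxidoreductase that pairs with tapasin, had 168 and 156 RPKM in DMSO and 191 and 181 under T-5224, and it rose by 0.20 (SE 0.056, adjusted p = 0.00597). Tapbp over Pdia3 was 0.934 and 1.08 in DMSO and 0.346 in each treated library. Without DMSO replicate 2 the call of Pdia3 was lost (adjusted p = 0.0780).

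Tapbp and H2-T23 are the first and the last of the 6 of these genes that lie on chromosome 17, 2.1 Mb apart. They were also the pair most alike in pattern among the class I genes tested (Pearson r = 0.998 over the 10 libraries). Their ratio hardly moved within an experiment, which restates that likeness and is no separate result. Tapbp over H2-T23 was 5.86 to 6.98 in the 4 libraries of the T-5224 experiment and 10.3 to 12.1 in the 6 of the SB431542 experiment. Tapbp over its relative Tapbpl (TAPBPR), which edits peptides outside the loading complex, did change. Tapbpl had 7.16 and 5.50 RPKM in DMSO and 17.8 and 16.0 under T-5224 and rose by 1.36 (SE 0.11, adjusted p = 3.30e-07), so that Tapbp over Tapbpl went from 21.9 and 30.6 to 3.72 and 3.91.

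Erap1 (chr13:74777320-74829983), which trims peptides in the endoplasmic reticulum, had 5.29 and 4.82 RPKM in DMSO and 4.22 and 4.14 under T-5224. It fell by 0.25 on the log2 scale (SE 0.091, adjusted p = 0.0261), a call that was lost when DMSO replicate 1 (adjusted p = 0.123), T-5224 replicate 1 (0.0848) or T-5224 replicate 2 (0.117) was left out. Nlrc5 (chr8:96996663-97051172), the class I activator, had 0.103 and 0.231 RPKM in DMSO and 0.125 and 0.084 under T-5224, too low to test. In the SB431542 experiment it had 0.036, 0.117 and 0.089 RPKM in DMSO and 0.019, 0.10 and 0.020 with inhibitor. Over all libraries Nlrc5 rested on about 6 to 66 reads, and it stayed under the mean asked for a test.

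**Figure D2:**
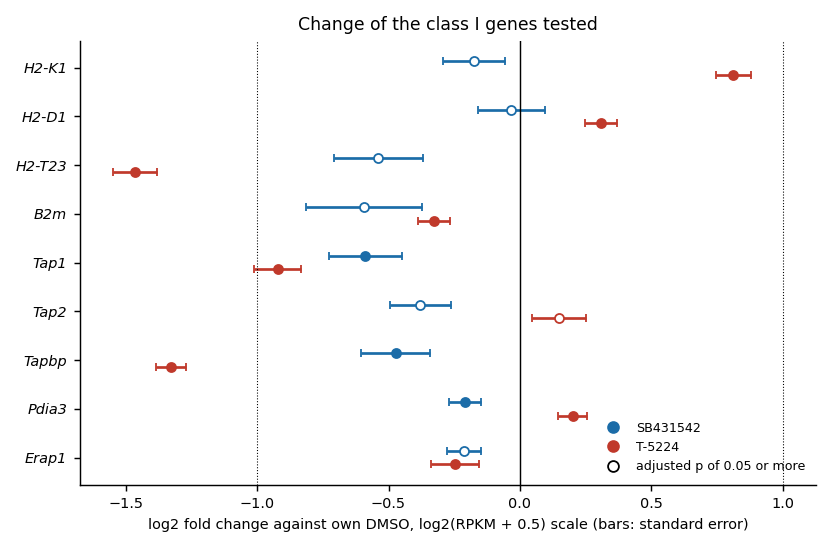
Log2 fold change of the 9 class I genes tested, SB431542 in blue and T-5224 in red, each against its own DMSO libraries; bars are standard errors, open circles did not pass, and dotted lines mark a 2-fold change. Only H2-T23 (-1.46) and Tapbp (-1.33) under T-5224 lie beyond the dotted lines.

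**Figure D3:**
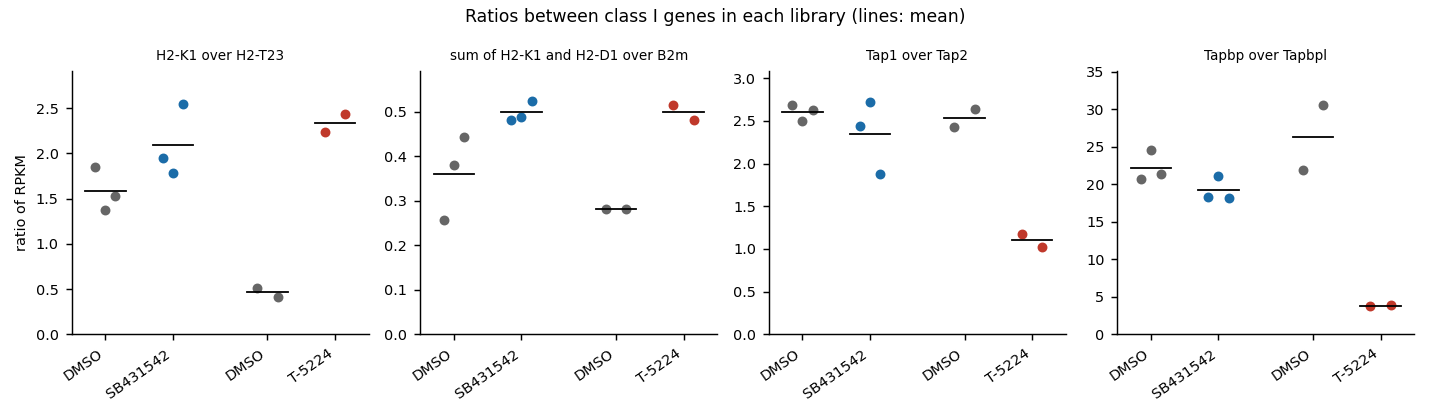
Ratios of RPKM between class I genes in each library (y axes, linear from 0), with DMSO in gray, SB431542 in blue, T-5224 in red and group means as lines. H2-K1 over H2-T23 was 2.24 and 2.44 under T-5224 against 0.409 and 0.515 in its DMSO libraries, while Tap1 over Tap2 and Tapbp over Tapbpl were lower with T-5224 in both treated libraries.

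SB431542 lowered Tap1, Tapbp and Pdia3 and raised none of the 9 genes at an adjusted p under 0.05. Of all 10842 genes tested in this experiment, 10.0% were lower and 10.2% higher. The 3 of 9 lower is above the background share, while among so few genes 0 of 9 higher cannot be told apart from it. Neither was tested against that share. None of the 9 was past 2-fold, which 0.581% of all genes were when lower and 0.231% when higher. All 3 treated libraries were below all 3 DMSO libraries for 6 of the 9 (H2-T23, Tap1, Tap2, Tapbp, Pdia3 and Erap1), against 21.3% of all genes, and above for 0 of the 9, against 23.9%. The median log2 fold change of the 9 was -0.38 and that of all genes 0.0082. These calls were near the threshold, and leaving out 1 library at a time gave from 0 to 6 genes called lower: 0 without DMSO replicate 2, SB431542 replicate 1 or SB431542 replicate 3, and 6 without DMSO replicate 1.

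Tap1 had 3.71, 4.92 and 4.37 RPKM in DMSO and 2.95, 3.06 and 2.16 with SB431542. It fell by 0.59 on the log2 scale (SE 0.14, adjusted p = 0.0259), and the call was lost in 5 of the 6 fits that left out a library, all but the one without DMSO replicate 1 (adjusted p up to 0.0780). Tap2 had 1.38, 1.97 and 1.66 RPKM in DMSO and 1.21, 1.13 and 1.15 with inhibitor (log2 fold change -0.38, SE 0.12, adjusted p = 0.0573). Here Tap1 over Tap2 overlapped between groups.

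Tapbp had 88.3, 112 and 86.3 RPKM in DMSO and 65.3, 80.2 and 60.5 with SB431542, and it fell by 0.47 (SE 0.13, adjusted p = 0.0431). The call was lost without DMSO replicate 2, SB431542 replicate 1 or SB431542 replicate 3 (adjusted p up to 0.154). Pdia3 had 238, 209 and 216 RPKM in DMSO and 190, 189 and 193 with inhibitor, and it fell by 0.21 (SE 0.061, adjusted p = 0.0493), a call kept only without DMSO replicate 1 among those 6 fits. Pdia3 thus went opposite ways under the 2 inhibitors, and that difference was not tested.

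The heavy chains did not pass. H2-T23 had 8.30, 10.9 and 7.81 RPKM in DMSO and 5.56, 7.66 and 5.0 with SB431542 (log2 fold change -0.54, SE 0.17, adjusted p = 0.0630). H2-K1 had 15.4, 14.9 and 12.0 RPKM in DMSO and 10.8, 13.7 and 12.7 with inhibitor (-0.17, SE 0.12, adjusted p = 0.321), and H2-D1 had 21.5, 28.0 and 20.7 in DMSO and 21.6, 25.7 and 21.0 with inhibitor (-0.03, SE 0.13, adjusted p = 0.876). The groups of both classical chains overlapped. Erap1 had 4.74, 5.20 and 5.05 RPKM in DMSO and 4.18, 4.23 and 4.29 with inhibitor (-0.21, SE 0.064, adjusted p = 0.0540).

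B2m had 144, 113 and 73.9 RPKM in DMSO and 67.3, 80.5 and 64.3 with SB431542 (-0.59, SE 0.22, adjusted p = 0.0998). Its change in means was as large as that of Tap1, but DMSO replicate 3 lay inside the range of the treated libraries. Without that library the log2 fold change was -0.85 (adjusted p = 0.0111). B2m did not pass when any other library was left out (adjusted p from 0.092 to 0.261). Without DMSO replicate 1, the highest library, its log2 fold change was -0.37.

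DMSO replicate 3 was also low in interferon-stimulated genes. Over the 6 genes of that list that averaged 1 RPKM or more in both groups, Isg15 among them, the median log2 distance from the DMSO mean was 0.076, 0.48 and -0.66 in the DMSO libraries and -1.09, -0.33 and -1.41 with SB431542. DMSO replicate 3 thus lay below SB431542 replicate 2 on this list. In the T-5224 experiment the 10 such genes of the list lay at -0.094 and 0.094 in DMSO and at -1.54 and -1.57 with inhibitor, with no overlap. The part of this difference among libraries in the class I results was not tested.

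**Figure D4:**
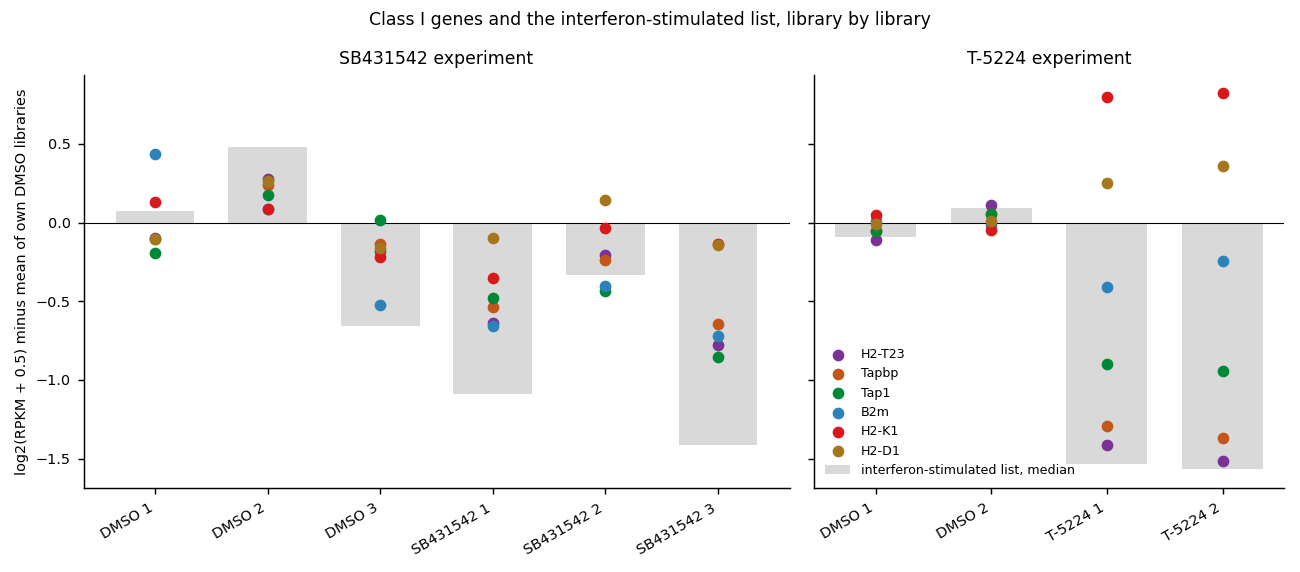
Log2(RPKM + 0.5) of 6 class I genes (points) and the median of the interferon-stimulated list (gray bars) in each library, relative to the mean of the DMSO libraries of the same experiment. In the SB431542 experiment DMSO replicate 3 sits at -0.66 on the list, between treated libraries at -0.33 and -1.09, and under T-5224 the list and H2-T23 are far below 0 while H2-K1 and H2-D1 are above it.

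Upstream of the class I genes, Irf9, an interferon-activated transcription factor, had 19.4 and 19.1 RPKM in DMSO and 4.96 and 5.25 under T-5224. It fell by 1.82 on the log2 scale (SE 0.072, adjusted p = 1.07e-09). Irf1, an interferon-induced factor that binds class I promoters, went the other way, from 8.45 and 7.80 to 18.3 and 17.1 RPKM (1.08, SE 0.0745, adjusted p = 1.06e-07). The kinase Jak2 (1.24) and the Jak phosphatase Ptpn2 (1.38) also rose. Of 13 interferon signaling genes tested, 6 fell and 4 rose, beside 39.4% and 40.3% of all genes.

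With SB431542, Stat2, another interferon-activated transcription factor, had 8.44, 8.97 and 6.33 RPKM in DMSO and 5.52, 5.87 and 5.11 with inhibitor and fell by 0.48 (SE 0.13, adjusted p = 0.0370). The kinase Jak1 (-0.18) fell as well, and 0 of the 13 rose, beside 10.2% of all genes. The call of Stat2 was lost without DMSO replicate 2 or any 1 of the SB431542 libraries (adjusted p up to 0.137), and that of Jak1 in every fit but the one without DMSO replicate 1 (up to 0.168). The Irf1 groups overlapped, with 9.60 to 11.1 RPKM in DMSO and 10.2 to 10.9 with inhibitor (log2 fold change 0.03, adjusted p = 0.753).

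Of 15 interferon-stimulated genes tested under T-5224, 10 averaged 1 RPKM or more in both groups. Of these, 8 fell, 7 of them past 2-fold, and 0 rose, with a median log2 fold change of -1.52, beside 38.3% lower, 8.73% lower past 2-fold, 40.5% higher and a median of 0.015 among all 10208 such genes. Xaf1 fell from 14.4 and 14.5 to 1.44 and 1.57 RPKM and Usp18, which removes Isg15 from proteins, from 10.6 and 14.6 to 1.26 and 1.45. The other 5 (Gbp2, Ifit1, Irf7, Mx2 and Oas1a) reached the filter through 1 group only and had to differ, so they are not counted. Mx2, named after its value was seen, was the 1 of them higher with inhibitor (0.632 and 0.841 RPKM in DMSO, 2.25 and 2.48 under T-5224). With SB431542, 1 of the 6 over that level in both groups fell, beside 9.79% of all such genes. This was Isg15, from 8.36, 13.3 and 3.19 to 1.31, 3.29 and 1.01 RPKM (-1.81, SE 0.51, adjusted p = 0.0442). The Isg15 groups overlapped at DMSO replicate 3, and the call was lost without DMSO replicate 2 or any 1 of the SB431542 libraries (adjusted p up to 0.156). The immunity GTPase Igtp, which with Ifit1 and Usp18 reached the filter through DMSO only, had 2.10, 3.23 and 0.838 RPKM in DMSO and 0.566, 0.613 and 0.477 with inhibitor.

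Of 13 tested factors that act at class I promoters, 4 fell and 6 rose under T-5224 (39.4% and 40.3% of all genes), and 2 fell and 2 rose with SB431542 (10.0% and 10.2%). Rfx5, the DNA-binding subunit of the X-box complex, fell with both inhibitors, from 6.34 and 6.34 to 4.09 and 3.91 RPKM under T-5224 (-0.61, SE 0.085, adjusted p = 4.49e-05) and from 4.82, 4.05 and 4.36 to 2.74, 2.34 and 2.10 with SB431542 (-0.76, SE 0.105, adjusted p = 0.00374). Rfxank, another subunit of that complex, fell in both too (-0.52 and -0.39). Ezh2, the Polycomb methyltransferase, rose under T-5224 from 22.3 and 21.5 to 48.2 and 48.7 RPKM (1.13) and by 0.17 with SB431542, and Atf1, of the Creb family, rose by 0.78 and 0.30. With SB431542, Rfx5 kept its call with each library left out, while Rfxank lost it without SB431542 replicate 2 (adjusted p = 0.0685) or 3 (0.0757), and Ezh2 and Atf1 lost theirs in every fit but the one without DMSO replicate 1 (up to 0.149 and 0.119).

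Proteasome genes also changed under T-5224. The constitutive catalytic subunits Psmb5, Psmb6 and Psmb7 all rose, by 0.45, 0.70 and 0.32, with Psmb6 going from 158 and 151 to 255 and 246 RPKM. The proteasome activator subunits Psme1 (-0.86) and Psme2 (-0.52) fell. Of all genes tested, 40.3% rose and 39.4% fell. The interferon-induced catalytic subunits were low in this line. Psmb8 was at 0.132 RPKM or less in all 10 libraries, Psmb9 went from 0.893 and 1.11 in DMSO to 0.265 and 0.352, below the test limit, and Psmb10 had 9.66 and 8.77 against 8.84 and 10.7 (0.07, adjusted p = 0.487). The 3 interferon-induced subunits together made 3.04% and 2.86% of the RPKM of the constitutive ones in DMSO and 1.78% and 2.31% under T-5224. With SB431542 Psmb10 rose from 6.18, 6.64 and 6.69 to 7.78, 8.14 and 8.64 RPKM (0.31, SE 0.066, adjusted p = 0.0184). The other 2 tested genes of that list and the 3 constitutive subunits did not pass, where 10.0% of all genes were called lower and 10.2% higher. The interferon-induced share of the constitutive RPKM was 2.21% to 2.35% in DMSO and 2.51% to 2.78% with inhibitor. Psmb10 made up most of it, and the other interferon-induced subunits, both too low to test, did not rise. Psmb9 had 0.617, 0.861 and 0.583 RPKM in DMSO and 0.440, 0.716 and 0.301 with SB431542. Mean RPKM of Psmb8 was 0.0897 in DMSO and 0.011 with SB431542. The call of Psmb10 was lost without SB431542 replicate 2 (adjusted p = 0.0749) or 3 (0.0819).

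The endoplasmic reticulum chaperones rose under T-5224, 8 of 9 tested and 5 past 2-fold (40.3% and 10.4% of all genes), with a list median of 1.09. Hspa5 (BiP), the main chaperone of that compartment, went from 86.8 and 80.1 to 1193 and 1187 RPKM (3.83, SE 0.054, adjusted p = 4.68e-13). Calr, calreticulin of the loading complex, went from 222 and 204 to 509 and 504 (1.25, SE 0.056, adjusted p = 2.61e-09), Pdia4 rose by 1.43 and Canx, calnexin, by 0.55. Pdia3, a member of the same family of chaperones and oxidoreductases, rose by only 0.20. With SB431542, 1 of the 9 fell and 0 rose, beside 10.0% and 10.2% of all genes. The 1 that fell was Calr, from 485, 406 and 422 to 348, 356 and 361 RPKM (-0.30, SE 0.074, adjusted p = 0.0303). The call of Calr was lost without SB431542 replicate 1 (adjusted p = 0.114), 2 (0.109) or 3 (0.0982).

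Of the other class I chains, 7 averaged 1 RPKM or more in both groups under T-5224, and of these 3 fell and 4 rose, beside 38.3% and 40.5% of all such genes, with 1, H2-K2, higher past 2-fold. These are not 7 separate measurements, since H2-T9 and H2-T22, both lower, moved almost together, as did H2-L, which rose, with H2-D1. Mr1, which presents vitamin B metabolites, fell with both inhibitors, from 4.49 and 4.64 to 2.52 and 2.25 RPKM under T-5224 (-0.81, SE 0.10, adjusted p = 1.41e-05) and from 2.97, 2.81 and 2.68 to 2.29, 1.89 and 1.45 with SB431542 (-0.50, SE 0.13, adjusted p = 0.0376). It was the 1 of 7 tested that passed with SB431542, where 10.0% of all genes were called lower and 10.2% higher. That call of Mr1 was lost without DMSO replicate 2 (adjusted p = 0.0877), DMSO replicate 3 (0.0612), SB431542 replicate 2 (0.108) or SB431542 replicate 3 (0.0957). Among 7 aminopeptidases tested, 3 fell and 2 rose under T-5224, beside 39.4% and 40.3% of all genes tested. The largest changes among them were those of the puromycin-sensitive Npepps (-0.91) and of Lap3 (0.80). With SB431542 Lap3 alone passed, rising by 0.23, where 10.0% of all genes were called lower and 10.2% higher. The call of Lap3 was kept only without DMSO replicate 1 among the fits that left out a library (adjusted p up to 0.149). Over the 9 lists outside the 10 class I genes, 67 genes averaged 1 RPKM or more in both groups of the T-5224 experiment, and 26 of them fell (38.8%) and 28 rose (41.8%), close to the 38.3% and 40.5% of all such genes. In the SB431542 experiment 8 of 63 fell (12.7%) and 4 rose (6.35%), beside 1043 (9.79%) and 1076 of all 10658 such genes.

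**Figure D5:**
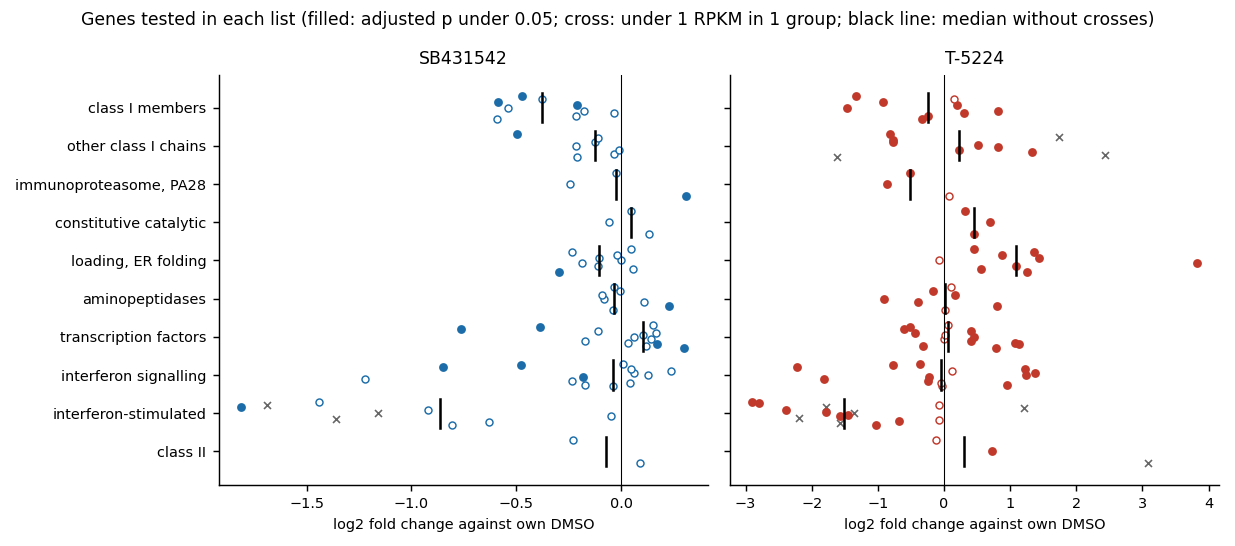
Log2 fold change of each tested gene (points, filled when adjusted p was under 0.05) in the class I genes and the 9 related lists, with genes under 1 RPKM in 1 group as crosses and the median of the others as a black line; x axes differ between the panels. Under T-5224 the interferon-stimulated list (median -1.52) lies left of 0 and the loading and chaperone list (median 1.09) right of it.

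By pattern over the 10 libraries, each set against its own DMSO mean, the genes most like the mean of H2-K1, H2-D1 and B2m were Nr2f2 (Pearson r = 0.937), Rnf25 (0.935), Gm5512 (0.933), Spata6 (0.929) and Mitd1 (0.926) among 10462 genes. B2m followed the other genes of that mean only weakly (Pearson r = 0.20 with H2-K1 and 0.16 with H2-D1). H2-K1 and H2-D1 were more alike (0.79). Under T-5224 the log2 fold change was 0.81 for H2-K1, 0.31 for H2-D1 and -0.33 for B2m. Likeness to this mean is therefore not likeness to each of its genes. The 10 points come from 2 tables and share the DMSO libraries they were centered on. The r values are a description without a test.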

How the data were processed

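RNA-seq libraries from ASZ001 cells were made with a stranded mRNA kit and sequenced on a HiSeq2000. The authors aligned the reads with TopHat to mm9 and computed the deposited RPKM values with HOMER (the strand setting, annotation release and the handling of reads with several matches are not given in the sources used here). Depth is not stated in the tables. From the steps between low RPKM values of short genes, libraries held about 31900000 to 51300000 counted reads, and 99.1% to 100% of the values used were whole to within 0.05 of a read. Read numbers per gene (581 to 1440 for Tap1, 1049 to 2884 for H2-K1) are approximate, since gene lengths came from another annotation, and the count test was not run. Replicates are biological per the labels, which do not say whether from separate cultures, so p-values measure the spread between these libraries.

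Rows whose symbol had become a date were left out (22 and 23). The test was limma 3.58.1 (R 4.3.3) on log2(RPKM + 0.5) for every gene whose RPKM averaged 1 or more, with the prior variance following mean expression, and p-values were adjusted by Benjamini-Hochberg over all those genes. Fold changes on this scale understate those of low genes. "Passed" means an adjusted p under 0.05. The script was tested on simulated data. Exact permutation of single genes could not go below p = 0.1 with 3 against 3 or 0.333 with 2 against 2, and was not used. DMSO libraries 4 and 5 of the labels appear as columns 1 and 2 of the T-5224 table. All 10 library columns were used.

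The class I genes and the 9 related lists (110 genes) were chosen with earlier results of these data known. Named genes are the 10 class I genes, from each list the 4 with the largest change among those that passed in an experiment, further genes named in any case (Psmb5 to Psmb10, Calr, Canx and Irf1, with 1 gene not reported here) and the 5 most alike in pattern. Gene positions are mm9 (GENCODE M1), and promoter sequences are RefSeq GRCm38.p6. Other pseudocounts, filters, scalings, thresholds, a replicate block (for T-5224 by column number, added after seeing the data) and leaving out each library were tried.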

Additional observations from a re-analysis of the deposited data

How the results depend on the processing

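With SB431542 the 3 class I genes called lower became 0 with no filter on low values, 7 at an unadjusted p under 0.05, 0 past 2-fold and 0 to 6 with a library left out. Tap1, Tapbp and Pdia3 kept their direction in every alternative run. Counting every related gene tested, the 9 called lower became 3 with no filter, 5 at a mean RPKM of at least 5, 19 at an unadjusted p, 2 past 2-fold and 1 to 15 with a library left out, and the 4 called higher became 2 with no filter, 0 past 2-fold, 2 after quantile normalization, 2 without the mean-variance trend and 0 to 8 with a library left out. With a library left out, the log2 fold change of H2-D1 ran from -0.12 to 0.10, above 0 without DMSO replicate 2, SB431542 replicate 1 or SB431542 replicate 3. Among related genes that did not pass, the sign turned for Irf1 (-0.00971 to 0.093), H2-K2 (-0.48 to 0.049), Psme2 (-0.14 to 0.097) and Ptpn2 (-0.0470 to 0.22). The cause was not tested.

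Over all genes tested, same-numbered libraries of the SB431542 experiment did not deviate together (r = -0.15, 0.15 and -0.09 for numbers 1, 2 and 3). The numbers were therefore not taken as pairs. Replicate 2 was the highest of each group for H2-T23 (10.9 RPKM in DMSO, 7.66 with SB431542), Tapbp (112 and 80.2), H2-D1 and Tap1. This did not hold for H2-K1, B2m, Tap2, Pdia3 or Erap1. The interferon-stimulated list was also highest in replicate 2 (median 0.48 in DMSO, -0.33 with inhibitor). An effect of replicate on these genes was not tested apart. With the replicate block, 3 class I genes were called lower, now H2-T23 (adjusted p = 0.0108) in place of Pdia3 (0.107), and 14 related genes were lower and 1 higher. For T-5224, whose groups share no numbers in the labels, the numbers of the table columns served as a replicate block, a choice made after seeing the data: 5 class I genes were lower and 3 higher, and 31 related genes lower and 32 higher. Same-numbered deviations had r = 0.059 over 2 pairs, so these numbers were not taken as pairs either.

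With T-5224 the 5 lower and 3 higher class I genes became 2 and 0 past 2-fold, and 3 were lower at a mean RPKM of at least 5, where 6 genes were tested. Past 2-fold the 31 and 32 related genes became 14 and 15. H2-T23, Tapbp, Tap1, B2m, H2-K1 and H2-D1 passed at an adjusted p under 0.05 with each library left out, fits in which 1 arm has a single library assumed to vary like the other group. Psmb10, which did not pass, ran from -0.0556 to 0.20 with a library left out. No scaling moved the median of all genes by more than 0.1 on the log2 scale. Tap2 rested on about 176 to 566 reads a library and Nlrc5 on 6 to 66.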

Other observations

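Genes outside peptide loading also moved under T-5224. Cd74, the invariant chain of MHC class II, had 0.077 and 0.083 RPKM in DMSO and 4.45 and 4.43 with inhibitor, values given without a test because it reached the filter through the treated group only. H2-DMa, a class II peptide exchange factor, rose from 2.03 and 1.85 to 3.91 and 3.15 (log2 fold change 0.72, SE 0.12, adjusted p = 0.000166). It was 1 of 2 class II genes at 1 RPKM or more in both groups there, where 40.5% of all such genes rose. The other, H2-DMb1, had 3.01 and 2.73 RPKM in DMSO and 2.81 and 2.37 under T-5224 and did not pass (-0.13, adjusted p = 0.319). H2-Ab1, too low to test, went from 0.549 and 0.702 to 0.146 and 0.135 RPKM. H2-DMb1 and H2-Ab1 were named after their values were seen. Of the 2 class II genes tested with SB431542 neither passed. Cd74 stood at 0.183 to 0.344 RPKM in all 6 libraries of the SB431542 experiment.

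3 class I relatives outside the classical chains reached the filter in the T-5224 experiment through 1 group only, and their values are given without a test. H2-Bl, a chain with near copies in the same cluster, had 0.027 and 0 RPKM in DMSO and 2.21 and 2.34 with inhibitor. Hfe, which controls iron uptake, had 0.226 and 0.177 RPKM in DMSO and 1.83 in each treated library. Cd1d1, which presents lipids to NKT cells, had 2.13 and 2.53 RPKM in DMSO and 0.324 and 0.525 with inhibitor. In the SB431542 experiment the 3 genes were at or below 0.124, 0.096 and 0.566 RPKM and were not tested.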
